A study of Drosophila melanogaster with 8 samples.

Results

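Transcripts of 9 basement membrane genes were followed in adult heads of Drosophila melanogaster after a pulse of the transcription cofactor and phosphatase Eyes absent (EYA). The genes were the laminin chains LanA, wb, LanB1 and LanB2, the collagen IV chains Col4a1 and vkg, the nidogen gene Ndg, the perlecan gene trol and the pericardin gene prc. They were taken by name, as every probe set that the array annotation gives exactly 1 of these symbols, which found 18 of the 18769 probe sets that are not array controls. For wb there were 3 probe sets and for trol 8, and each of the other 7 genes had 1. Of the 18, 13 lay among the tested probe sets, which were the brightest 60% by mean signal, and all 9 genes kept at least 1. The list was chosen by its values in a contrast of wild-type EYA with both mutant forms, so differences in that contrast are given as a description with no test. The orthogonal comparisons are the mean of all 3 EYA groups against control and the 2 mutants against each other. Each single EYA group against control shares arrays with the contrast that chose the genes.

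There were 8 single-colour Affymetrix arrays in 4 groups of 2. Control flies were W1118, with neither driver nor transgene. The other groups carried a heat-inducible Hsp-GAL4 driver, which is not restricted to a cell type, with 1 transgene each, namely UAS-EYA-wildtype in the first, UAS-EYA-D493N in the second and UAS-EYA-E728Q in the third. D493N is a form with reduced phosphatase activity and E728Q a form with little if any. Every group, control included, held males and females raised at 25 C, heat-shocked for 1 h at 37 C and left for 3 h at 25 C, and their age is not given. Each sample pooled 200 heads, extracted as 4 lots of 50, of whose RNA 2 µg was labelled. Since control lacked both the driver and a transgene, the effects of driver, strain and EYA cannot be told apart against it. Separate cultures are not mentioned for the 2 samples of a group, so p-values measure a spread that may be technical.

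A basement membrane is a thin sheet of extracellular matrix that lines epithelia, muscle, nerve and fat. Laminin is a trimer of an alpha, a beta and a gamma chain. In Drosophila, LanA and wb encode alternative alpha chains, and both pair with the single beta chain LanB1 and the single gamma chain LanB2. Collagen IV, made from Col4a1 and vkg chains, forms the second network, nidogen bridges it to laminin, and perlecan is the heparan sulphate proteoglycan of the sheet. Pericardin is a collagen-like protein best known from the matrix around the fly heart. In flies much of this matrix is made by haemocytes and fat body and carried to other tissues by the haemolymph.

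Deposited values were linear signals with the median of every array at 100, and arrays of the same group correlated with r of 0.981 to 0.991. The ratio of the Act5C control probe sets for the transcript's 3′ and 5′ ends, a sign of RNA integrity and labelling, was 4.15 and 4.29 in control, 4.28 and 4.35 in wild-type EYA heads, 5.63 and 6.26 in D493N heads, and 4.84 and 5.11 in E728Q heads. The only probe set for eya itself gave 991 and 918 in control and 916 and 915 on the arrays labelled wild-type EYA. The wild-type label is therefore not borne out by this probe set (log2 difference -0.04, adjusted p = 0.851), and whether its probes lie inside the transgene could not be checked here. D493N heads gave 1240.4 and 1554, and E728Q heads 1386 and 1140.3, of which D493N passed the test against control (0.45, adjusted p = 0.0235). Group names below are those of the labels. In whole heads, fewer cells of a type and less RNA per cell cannot be told apart.

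LanA, the laminin alpha chain of most fly basement membranes, stood apart from the other 8 genes by its high signal on both arrays labelled wild-type EYA. Its signal was 940.0 and 952 in control, 2999 and 2699 in wild-type EYA heads, 563 and 796 in D493N heads, and 811 and 623 in E728Q heads. Both wild-type EYA arrays lay far above the other 6, and all 4 mutant arrays lay below both control arrays. Against control, LanA rose 3.01-fold in mean signal in wild-type EYA heads (log2 difference 1.61, SE 0.17, adjusted p = 0.000215). These p-values come from limma with Benjamini-Hochberg adjustment over all 11261 tested probe sets. The same comparison shares the wild-type arrays with the contrast that chose the genes. LanA fell in D493N heads (-0.55, adjusted p = 0.0387), and in E728Q heads it was -0.44 and did not pass the test (adjusted p = 0.0952). The mean of the 3 EYA groups, which mixes these opposite differences, was 0.20 from control (95% interval -0.11 to 0.52, adjusted p = 0.309).

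As a description of the contrast that chose the list, LanA was 4.08-fold higher in wild-type EYA heads than in the mean of both mutants (log2 difference 2.10, SE 0.15). It was 2.16 above D493N and 2.05 above E728Q, and the 2.10 ranked 4 from the top among the 11261 tested probe sets. D493N and E728Q differed in LanA by -0.11, with an interval of -0.49 to 0.27. By array signal the order of LanA was wild-type EYA, control and then both mutants, whose arrays overlap each other. The step from control to E728Q did not pass the limma test (adjusted p = 0.0952). LanA was past the threshold against control in wild-type EYA heads in all 18 alternative settings, at 1.55 to 1.66 when 1 array was left out. The decrease in D493N heads passed in 7 of 18 settings and was -0.30 (adjusted p = 0.143) without D493N replicate 1.

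Some markers of fat body, a known source of this matrix, also differed in the contrast where LanA is high. Of 9 fat body markers tested, 2 were higher in wild-type EYA heads than in both mutants and 0 lower, while 0.63% of all probe sets were called higher. The female-biased fat body gene fit gave 6281 and 5272 in control, 4133 and 2968 in wild-type EYA heads, 1997 and 1321 in D493N heads, and 1109 and 1073 in E728Q heads (log2 difference from the mutants 1.47, adjusted p = 0.00359). The other was the clotting factor gene fon (0.57, adjusted p = 0.0149). The marker lists were chosen with earlier results of these data known, so these limma p-values are not independent evidence. Both were highest in control, unlike LanA. The median difference of the 9 markers was 0.07, against -0.01 for all tested probe sets. The lipoprotein gene apolpp lay the other way without a call, at 16403 and 14247 in wild-type EYA heads and 17333.5 to 21076 in the mutants. The summed signal of the 9 markers overlapped, at 124388 and 106415 in wild-type EYA heads and 114330 to 139096 in the mutants. None of the 10 haemocyte markers was called there by limma, and 1 had an unadjusted p under 0.05. The part of the fat body difference in the LanA values was not tested.

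**Figure D1:**
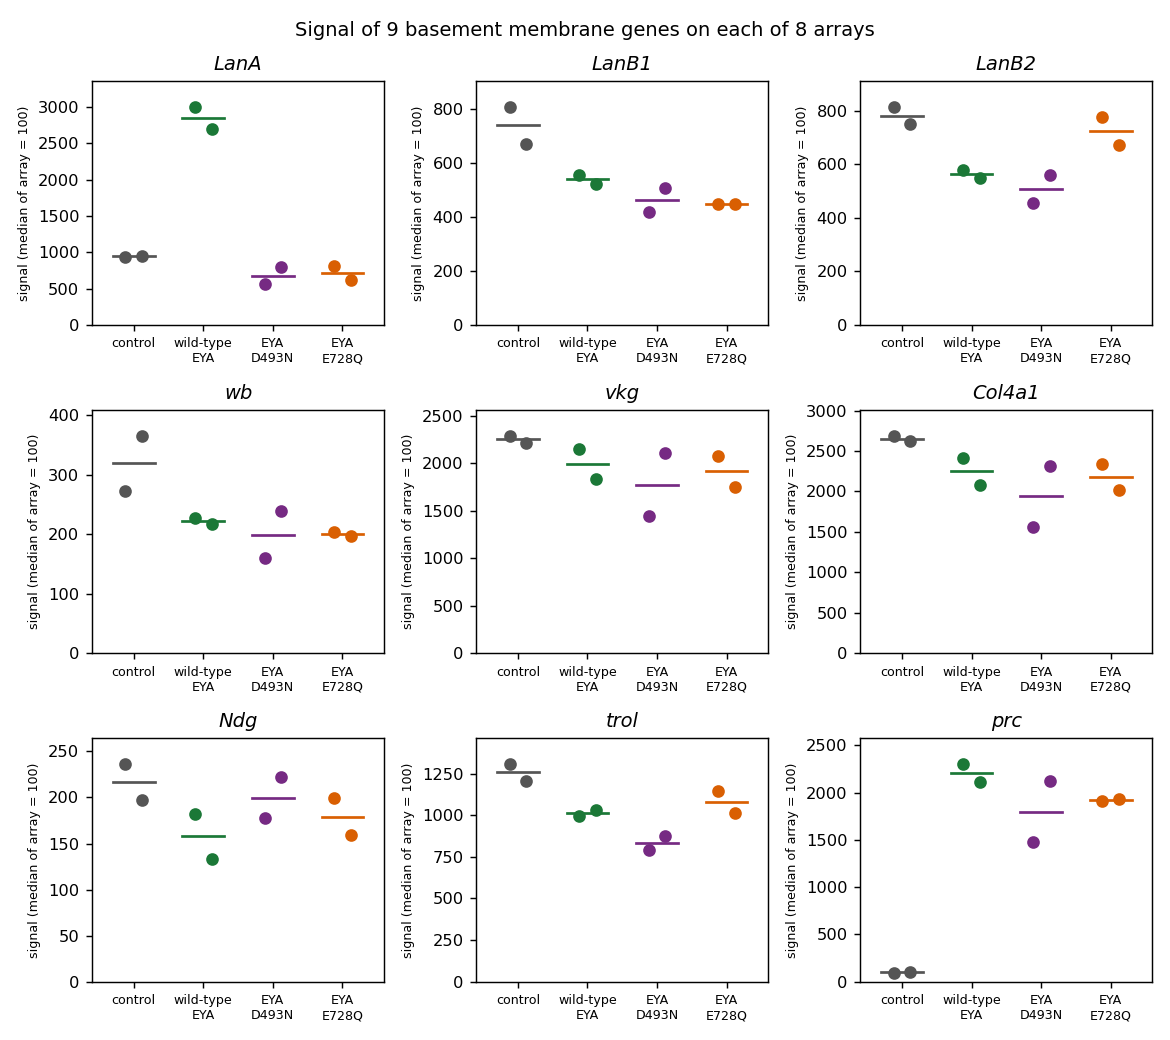
Deposited signal (array median 100, linear axes from 0) of the probe set that stands for each of 9 genes, with 1 point per array and a line at the mean of the 2 arrays of a group. LanA is high only on the 2 wild-type EYA arrays (2999 and 2699), whereas prc is low only on the 2 control arrays (96.2 and 105).

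LanA lies on chromosome arm 3L. Gene order was taken from the RefSeq annotation of Release 6 plus ISO1 MT, which served for names and neighbours alone. The 5 tested genes on each side of LanA differed by -0.45 to 0.22 between wild-type EYA and the mutants. Of those 10 neighbours, the importin gene Tnpo alone passed the test in wild-type EYA heads against control (0.44, adjusted p = 0.0296). Tnpo lies next to LanA and was also higher in the mean of the 3 EYA groups (0.47, adjusted p = 0.00619). Between wild-type EYA and the mutants it differed by -0.04. In that contrast the high signal was seen for LanA and not for the tested genes beside it.

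The partner chains of LanA did not rise with it. LanB1, the beta chain of every fly laminin, gave 808 and 673 in control, 555 and 524 in wild-type EYA heads, 418 and 507 in D493N heads, and 449 and 449.6 in E728Q heads. All 6 EYA arrays lay below both control arrays. LanB1 fell in the mean of the 3 EYA groups (-0.64, SE 0.10, adjusted p = 0.00100) and in each of them, by -0.45 in wild-type EYA heads (adjusted p = 0.0246), -0.73 in D493N heads (0.00181) and -0.75 in E728Q heads (0.00191). Its probe set has the suffix that marks probes shared by more than 1 transcript.

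LanB2 encodes the gamma chain. It gave 814 and 752 in control, 580.3 and 549 in wild-type EYA heads, 456 and 562 in D493N heads, and 777 and 672 in E728Q heads. Wild-type EYA and D493N lay below control, while the E728Q arrays overlapped it. LanB2 fell in wild-type EYA heads (-0.46, adjusted p = 0.0231), in D493N heads (-0.68, adjusted p = 0.00299) and in the mean of the 3 (-0.43, adjusted p = 0.00907). In E728Q heads it was -0.16 from control (95% interval -0.43 to 0.11, adjusted p = 0.399). The 2 mutants themselves differed by -0.52 (D493N minus E728Q, 95% interval -0.79 to -0.25), which did not pass after adjustment (adjusted p = 0.148).

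The second alpha chain, wb, did not share the high wild-type signal of LanA. Its main probe set gave 272 and 365 in control, 227 and 217 in wild-type EYA heads, 159 and 239 in D493N heads, and 203 and 197 in E728Q heads. All 6 EYA arrays were below control, and the D493N arrays spanned those of the other EYA groups. wb fell in the mean of the 3 (-0.59, SE 0.17, adjusted p = 0.0248) and in D493N heads (-0.67, adjusted p = 0.0383). In wild-type EYA heads it was -0.47 (adjusted p = 0.142) and in E728Q heads -0.64 (adjusted p = 0.0523). A dim second wb probe set, below the filter, gave 27.4 and 36.0 in control and between 0.860 and 12.4 on the 6 EYA arrays, and the remaining one was between 1.24 and 7.06 on every array.

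The calls of the laminin partners rested on few arrays. In wild-type EYA heads, those of LanB1 and LanB2 were lost whenever a control or wild-type array was left out, at adjusted p of 0.0557 to 0.172 and 0.0930 to 0.125. In the mean of the 3 EYA groups, LanB2 was lost without either control array and with the Act5C ratio as a covariate, wb without control replicate 2 (-0.36, adjusted p = 0.280) and in 5 further settings, and LanB1 only with that covariate (adjusted p = 0.0502). The wb call in D493N heads passed in 7 of 17 alternatives, and was -0.41 (adjusted p = 0.166) without D493N replicate 1 and -0.43 (adjusted p = 0.249) without control replicate 2.

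In the contrast that chose the list, the wild-type arrays were above all 4 mutant arrays for LanA and LanB1, 2 of the 9 genes. Across all tested probe sets 5.75% were apart in that way. Because this contrast chose the genes, the count beside that share is a description and no evidence of an excess. LanB1 was 0.29 (SE 0.10) higher in wild-type EYA heads than in the mutants, wb 0.18 and LanB2 -0.05. So against the mean of both mutants LanA differed by 2.10 on the log2 scale, while its obligate partners LanB1 and LanB2 stayed within 0.29. For LanB2 that mean joins unlike mutants. Wild-type EYA was 0.21 above D493N, whereas against control LanB2 was -0.46 in wild-type EYA heads and -0.16 in E728Q heads.

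The collagen IV chains Col4a1 and vkg followed each other closely and showed the largest spread between replicates in D493N heads. Col4a1 gave 2690.1 and 2619 in control, 2417 and 2085 in wild-type EYA heads, 1560.0 and 2320.4 in D493N heads, and 2342 and 2023 in E728Q heads. vkg gave 2293 and 2212 in control, 2152 and 1833 in wild-type EYA heads, 1449 and 2106 in D493N heads, and 2079 and 1756 in E728Q heads. For both genes all 6 EYA arrays were below control, and D493N replicate 1 was the lowest array. Their normalized log2 values correlated with r of 0.99 over the 8 arrays, which share control and EYA groups. The genes lie next to each other on arm 2L. The only Col4a1 probe set has the same suffix as that of LanB1, for probes shared by more than 1 transcript.

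Of the collagen IV tests against control, 1 passed, Col4a1 in D493N heads (-0.52, SE 0.16, adjusted p = 0.0405). Without D493N replicate 1 that difference was -0.24 (adjusted p = 0.113). Col4a1 was -0.18 in wild-type EYA heads (adjusted p = 0.487) and -0.29 in E728Q heads (adjusted p = 0.241). vkg was -0.13 in wild-type EYA heads, -0.41 in D493N heads and -0.25 in E728Q heads, at adjusted p of 0.611, 0.0800 and 0.287. In the mean of the 3 EYA groups Col4a1 was -0.33 (adjusted p = 0.0903) and vkg -0.27 (adjusted p = 0.149). Between wild-type EYA and both mutants they differed by 0.22 and 0.20, with overlapping arrays.

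D493N replicate 1 also had the lowest muscle signal. The 7 muscle markers on the array summed to 42329 there and to 70887 on D493N replicate 2, against 55170.4 and 56942 in control, 64521 and 58159 in wild-type EYA heads, and 65333 and 53396 in E728Q heads. None of the 6 tested muscle markers passed the test in the mean of the 3 EYA groups or in D493N heads, and the dimmest marker, TpnC4, was between 1.72 and 19.8. The same array stood apart in the signal of the 18S ribosomal RNA control probe sets, at 5619 for the 5′ end against 459 to 2196 on the other 7 arrays and 11249 for the 3′ end against 2852 to 5524. The part of the muscle and ribosomal RNA differences in the collagen IV values was not tested.

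Ndg, the nidogen that links laminin to collagen IV, passed no test. It gave 236 and 198 in control, 182 and 133 in wild-type EYA heads, 177 and 223 in D493N heads, and 199.6 and 159 in E728Q heads. Both wild-type arrays were below control, and the mutant arrays overlapped it. The differences from control were -0.43 in wild-type EYA heads (95% interval -0.86 to 0.00, adjusted p = 0.149), -0.13 in D493N heads (adjusted p = 0.676) and -0.26 in E728Q heads (adjusted p = 0.374). The 95% intervals of all 3 differences held 0.

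trol encodes perlecan, whose heparan sulphate chains hold growth factors. Its brightest probe set gave 1307 and 1208 in control, 995 and 1034 in wild-type EYA heads, 792 and 875 in D493N heads, and 1144 and 1014 in E728Q heads. All EYA arrays were below control, and the D493N arrays were the lowest. trol fell in D493N heads (-0.65, SE 0.10, adjusted p = 0.00108) and in the mean of the 3 (-0.39, adjusted p = 0.00477). It was -0.28 in wild-type EYA heads (adjusted p = 0.0687) and -0.25 in E728Q heads (adjusted p = 0.100), neither called. D493N minus E728Q was -0.40 (95% interval -0.62 to -0.19, adjusted p = 0.152).

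The trol probe sets disagreed. Of the 5 tested, only the brightest was called in the mean of the 3 EYA groups, and the others differed from control by 0.14, -0.23, -0.12 and 0.10. The second in brightness gave 826 and 636 in control and 686 to 900.0 on the EYA arrays, which overlapped control. The gene has many transcripts, and which of them each probe set reads was not analysed here. The remaining 3 probe sets lay below the filter, between 0.858 and 27.1. The call of the brightest in the mean of the 3 EYA groups was lost without control replicate 1 (adjusted p = 0.0550) and with the Act5C ratio as a covariate (adjusted p = 0.176).

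prc was the gene of the list that changed most against control, and it rose with all 3 forms of EYA. It gave 96.2 and 105 in control, 2303 and 2114 in wild-type EYA heads, 1476 and 2125 in D493N heads, and 1917 and 1937 in E728Q heads. Every EYA array lay far above both control arrays, and the wild-type and D493N arrays overlapped. In the mean of the 3 groups prc rose 19.7-fold in signal (log2 difference 4.06, SE 0.12, adjusted p = 1.24e-07). The rise was 22.0-fold in wild-type EYA heads, 17.9-fold in D493N heads and 19.2-fold in E728Q heads, with log2 differences of 4.28, 3.87 and 4.02. It ranked 7, 13 and 9 from the top among all tested probe sets in those comparisons.

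Differences in prc between the 3 forms of EYA were small beside the rise itself. D493N minus E728Q was -0.15 (95% interval -0.47 to 0.18, adjusted p = 0.708). Wild-type EYA was 0.33 (SE 0.12) above the mean of both mutants, given as a description. In the mean of the 3 groups prc was past the threshold in all 17 alternatives, at 3.97 to 4.14 when 1 array was left out and at 3.41 with the Act5C ratio as a covariate.

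The genes beside prc on arm 3L did not share one pattern. Of the 10 tested neighbours, CG11570, which lies next to it, rose by 2.21 in the mean of the 3 EYA groups (adjusted p = 0.000301) and CG43064 by 1.24 (adjusted p = 0.00315). CG5883, viaf and Pop2 fell by 0.66, 0.32 and 0.19 on the log2 scale (adjusted p = 0.00310, 0.00500 and 0.0388). The other 5 did not pass the test. Control and EYA flies differ in strain as well as in transgene, and the part of that difference in these values was not tested.

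**Figure D2:**
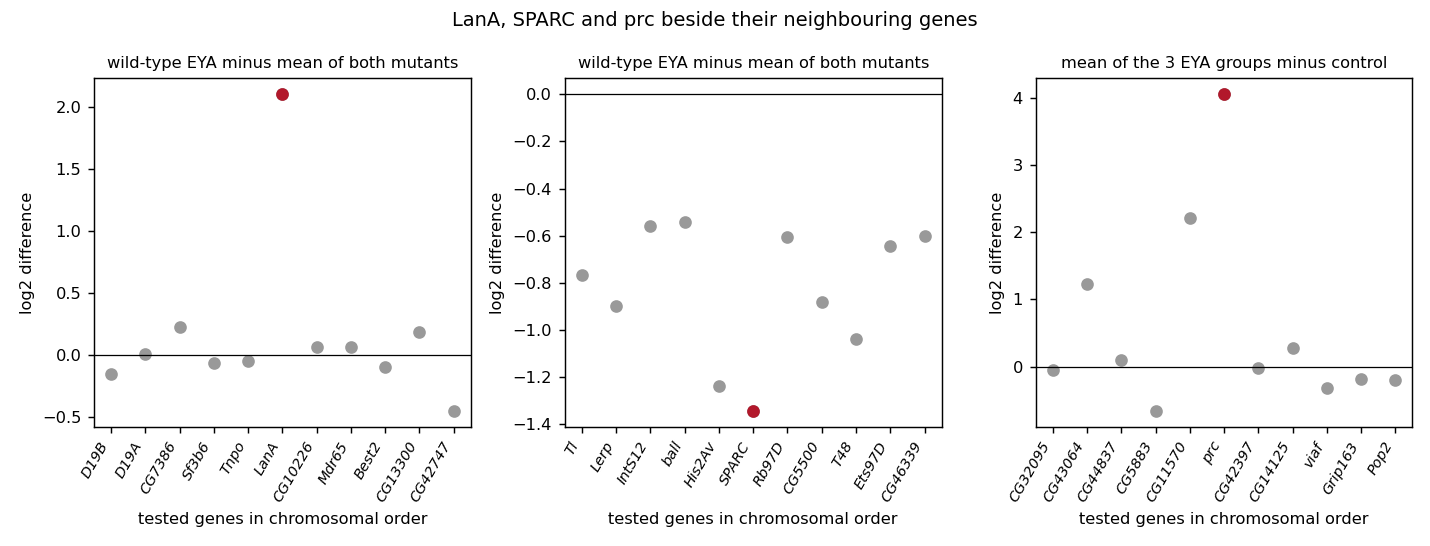
Log2 difference of LanA, SPARC and prc (red) and of the 5 tested genes on each side (grey) in chromosomal order, LanA and SPARC for wild-type EYA minus the mean of both mutants and prc for the mean of the 3 EYA groups minus control. LanA (2.10) stands above neighbours at -0.45 to 0.22, the 10 genes around SPARC (-1.34) are all below 0, and prc (4.06) has CG11570 (2.21) just before it.

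Markers of the cells known to make matrix were read beside prc. The 10 haemocyte markers were all tested, and 3 rose and 2 fell in the mean of the 3 EYA groups. Of all tested probe sets, 15.3% were called higher and 15.7% lower there. The phagocytosis receptor gene NimC1 (1.61), the prophenoloxidase gene PPO1 (1.01) and the GATA factor gene srp (0.72) rose, and Hml (-0.65) and the scavenger receptor gene Sr-CI (-0.62) fell. Their summed signal was 7538 and 6549.6 in control, 7675 to 7972 in wild-type EYA heads, 7892 to 8369 in D493N heads and 7686 to 7817 in E728Q heads. The lowest haemocyte marker, He, was between 27.9 and 79.8, so none was at 0.

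Of 9 fat body markers, 1 rose and 5 fell in the same comparison, against 15.3% and 15.7% of all tested probe sets. The largest were Lsp2 at 1.56 and Cyp4g1 at -2.26. Their sums were 139063 and 128850 in control and 106415 to 139096 on the EYA arrays. Of 6 pericardial and nephrocyte markers on the array, 3 were tested and none was called, with sums of 655 and 674 in control and 698 to 836 on the EYA arrays. Hand, Klf15 and Amnionless were below the filter, at 4.13 to 51.8. The part of these cell types in the prc rise was not tested.

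Counted over the 9 genes, the mean of all 3 EYA groups against control gave 1 higher call, prc, and 4 lower calls, LanB1, LanB2, wb and trol. Of all 11261 tested probe sets, 15.3% were called higher and 15.7% lower in that comparison. The median difference was -0.33 for the 9 genes and -0.02 for all tested probe sets. The number of calls among the 9 genes changed when 1 array was left out, as did the number over all probe sets. With the Act5C ratio as a covariate the comparison gave prc alone of the 9. That fit called 1019 of all probe sets in place of 3490.

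Wild-type EYA against control gave 2 higher calls, LanA and prc, and 2 lower calls, LanB1 and LanB2 (lost without any 1 control or wild-type array), where 11.4% and 11% of all probe sets were called. D493N gave 1 higher and 6 lower calls, against 14% in either direction over all probe sets, and the 6 were LanA, LanB1, LanB2, wb, Col4a1 and trol. Fewer of these 6 were called without D493N replicate 1, control replicate 2 or either wild-type array. E728Q gave prc as its higher call and LanB1 as its lower call, against 11.8% and 11.7%. More of the 9 were called lower in E728Q heads without either D493N array. The number called over all probe sets also changed when 1 array was left out, so these shifts are not particular to the 9 genes. The medians of the 9 genes were -0.28, -0.55 and -0.26 in these comparisons, which share the control arrays, and those of all tested probe sets lay between -0.03 and 0.00. By the probe set that stands for each gene, both arrays lay below both control arrays for 7 genes in wild-type EYA heads, 7 in D493N heads and 6 in E728Q heads. Over all tested probe sets the shares were 37.6%, 27.1% and 29.4%. The second trol probe set was above control in mean signal in the same groups (1.13-fold, 1.08-fold and 1.17-fold, none called).

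**Figure D3:**
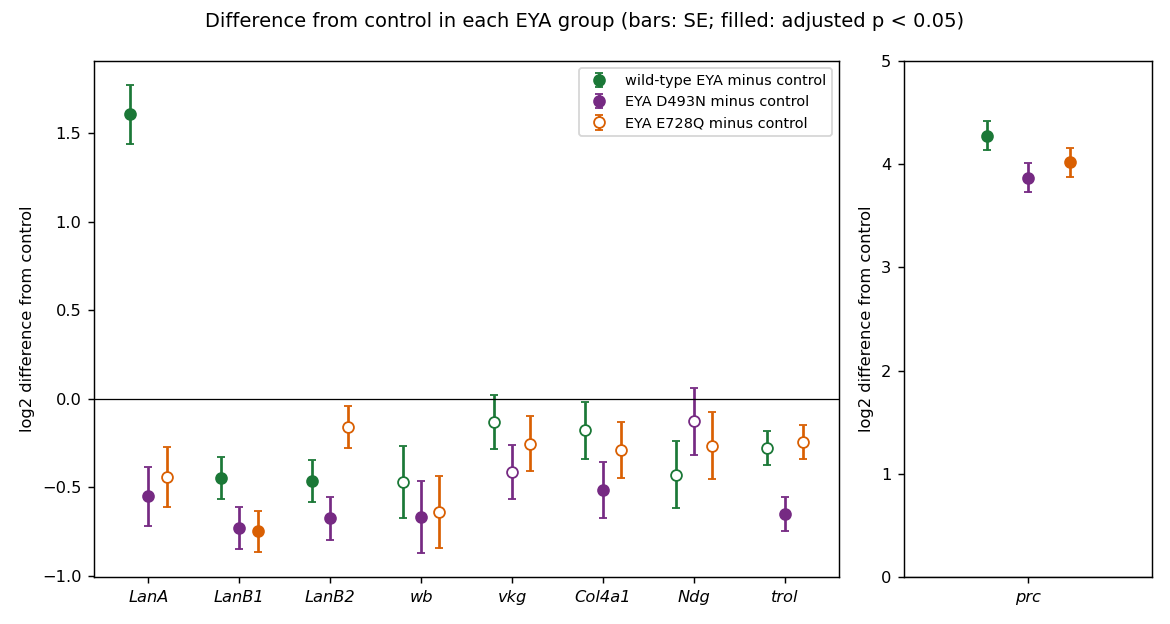
Log2 difference from control of 9 genes for each of the 3 forms of EYA, with bars of 1 SE from the model and filled points where the adjusted p is under 0.05. LanA is at 1.61 in wild-type EYA heads and at -0.55 and -0.44 with the mutants, and prc has its own axis at 3.87 to 4.28.

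D493N against E728Q, which is orthogonal to the contrast that chose the list, gave 0 calls among the 9 genes by limma, and 19 of all 11261 probe sets (0.169%) were called. At an unadjusted p under 0.05 there were 2 of the 9, LanB2 and trol, both lower in D493N heads, against 13.1% of all probe sets in either direction. The intervals of the others all held 0, from -0.59 to 0.14 for Col4a1 to -0.29 to 0.57 for Ndg. Leaving out D493N replicate 2 gave 5 calls, all lower in D493N heads, in a fit that called 1095 of all probe sets and 4.92% of them lower. Leaving out D493N replicate 1 gave 0.

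Other genes of the matrix and its receptors were read from 7 lists. They moved in both directions in the mean of all 3 EYA groups against control, where 31% of all tested probe sets were called. Of 11 other matrix proteins tested, 2 rose and 3 fell. Glt, a basement membrane glycoprotein, fell by 0.86, and Tig, the integrin ligand tiggrin, rose by 0.67 on the log2 scale (adjusted p = 4.90e-05 and 0.000257). Tsp, the thrombospondin of tendon matrix, rose by 0.29 (adjusted p = 0.0177), and Ppn, a papilin glycoprotein, fell by 0.23 (adjusted p = 0.0368).

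SPARC, a secreted glycoprotein that binds collagen IV, showed the opposite wild-type pattern to LanA. It gave 7633 and 6996 in control, 2679 and 2271 in wild-type EYA heads, 7069 and 6278 in D493N heads, and 6373 and 6781 in E728Q heads. The wild-type arrays were far below all others, the D493N arrays overlapped control, and both E728Q arrays were below it. SPARC fell in wild-type EYA heads against control (-1.44, adjusted p = 2.27e-05) and against the mean of both mutants (-1.34, SE 0.09, adjusted p = 0.000215). The lists that hold SPARC and the other matrix genes were chosen with earlier results of these data known, so this p is not independent evidence. The mutants were -0.11 and -0.09 from control (adjusted p = 0.479 and 0.596). Against both mutants its call held in 17 of 18 settings, all but the Act5C ratio as a covariate (adjusted p = 0.202).

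SPARC lies on arm 3R among genes that were also lower in wild-type EYA heads than in both mutants. Its 10 nearest tested neighbours were all lower in wild-type EYA heads than in the mutants, by -1.24 for His2Av to -0.54 for ball, and SPARC was the lowest of the 11. Against control these neighbours went both ways in wild-type EYA heads, with ball at 1.14 and T48 at -1.32 (limma, adjusted p = 0.00942 and 0.000123). The part of its chromosomal position in the SPARC difference was not tested.

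Among the 7 lists, the glypican gene dlp was the only other call between wild-type EYA and both mutants (-0.43, adjusted p = 0.0346), where 1.2% of all tested probe sets were called. dlp gave 927 and 820.2 in control, 874 and 924 in wild-type EYA heads, 1406 and 1403 in D493N heads, and 1207 and 1123 in E728Q heads. The mutant arrays were above all others, and wild-type EYA overlapped control. dlp rose in D493N heads (0.61, adjusted p = 0.000868) and in E728Q heads (0.38, adjusted p = 0.0127). Its call between wild-type EYA and the mutants held in 8 of 18 settings, and the adjusted p reached 0.507 in the others.

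Among enzymes that finish or cut the matrix, 2 genes passed the test against control with both mutants and not in wild-type EYA heads. Mmp2, a matrix metalloproteinase that cuts collagen IV, gave 501 and 528 in control, 486 and 499 in wild-type EYA heads, 332 and 371 in D493N heads, and 351 and 376 in E728Q heads. It fell in D493N heads (-0.58, adjusted p = 0.00491) and in E728Q heads (-0.52, adjusted p = 0.0104) and was -0.06 in wild-type EYA heads (adjusted p = 0.775). The lysyl hydroxylase gene Plod, whose product modifies collagen, fell likewise in D493N heads (-0.72, adjusted p = 0.00106) and in E728Q heads (-0.42, adjusted p = 0.0195) and was -0.11 in wild-type EYA heads (adjusted p = 0.503). Tested directly, wild-type EYA minus both mutants was 0.49 for Mmp2 and 0.46 for Plod, and neither passed (adjusted p = 0.0568 and 0.0575).

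Of 8 collagen and matrix maturation genes tested, 1 rose and 2 fell in the mean of the 3 EYA groups. Crag, a regulator of the polarised secretion of basement membrane, rose by 0.57 (adjusted p = 0.000258), Plod fell by 0.42 (adjusted p = 0.00566), and the prolyl hydroxylase gene PH4alphaEFB fell by 0.26 (adjusted p = 0.0228). Of 6 proteases and inhibitors, AdamTS-B rose by 0.63 (adjusted p = 0.0322) and Mmp2 and Ppn fell. Timp, the inhibitor of matrix metalloproteinases, was 0.13 from control (adjusted p = 0.177).

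Receptors and their cytoplasmic partners differed in direction as well. Of 5 integrin genes tested, only scb, an alpha chain, was called, and it fell by 0.96 (adjusted p = 0.000136). The beta chain gene mys was 0.10 from control (adjusted p = 0.386), and mew, an alpha chain of a laminin-binding integrin, was 0.06 (adjusted p = 0.666). Of 10 integrin-linked adhesion genes, the talin gene rhea (0.83), Zasp52 (0.51) and parvin (0.25) rose and the paxillin gene Pax fell (-0.90).

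The dystroglycan complex is another laminin receptor. Of 8 tested genes, the dystrophin gene Dys (0.48) and Scgdelta (0.38) rose and the syntrophin gene Syn2 fell (-0.20), while Dg itself was 0.12 from control (adjusted p = 0.479). Of 5 heparan sulphate proteoglycan genes, botv (0.61), which helps to build heparan sulphate chains, and dlp (0.35) rose. Of the 20 list genes called in this mean, 11 to 20 stayed called in the same direction when 1 array was left out, the fewest without control replicate 2, and 3 did with the Act5C ratio as a covariate. The medians of the 7 lists lay between -0.12 and 0.29, against -0.33 for the 9 basement membrane genes.

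**Figure D4:**
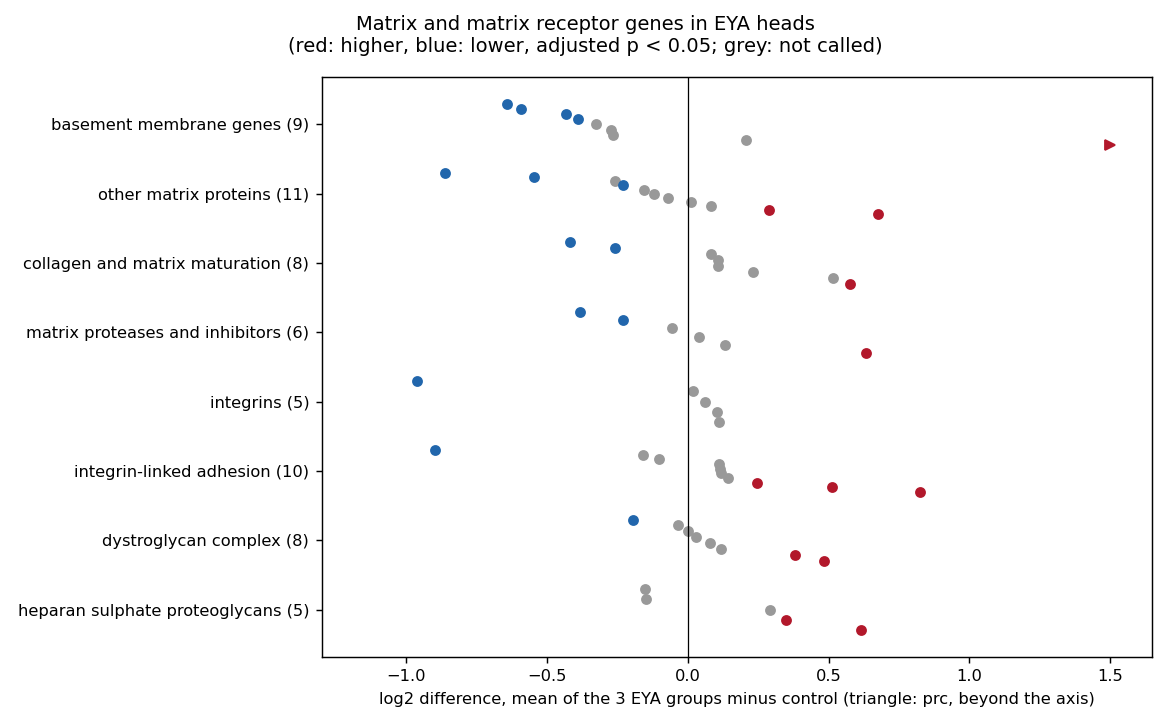
Log2 difference between the mean of the 3 EYA groups and control for each tested gene of 8 lists, with the number tested in brackets, coloured where the adjusted p is under 0.05 (red higher, blue lower). The basement membrane genes other than prc lie between -0.64 and 0.20, and the other lists hold genes on both sides of 0.

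The genes most like Col4a1 and prc over the 8 arrays were found by Pearson correlation of normalized log2 values, with no test. For Col4a1 they were vkg (0.99), arg (0.99), Glyp (0.98), hlk (0.97) and CG15506 (0.97). All of them had their lowest signal on D493N replicate 1, which for arg was 64.9 against 112 to 173 on the others. For prc they were Actbeta (1.00), CG2652 (1.00), SCAP (0.99), Prp40 (0.99) and NimC1 (0.99), all low on both control arrays. Among the 9 genes themselves, the highest correlations after Col4a1 and vkg were 0.92 for LanB2 with trol and 0.85 for wb with Col4a1. LanA correlated with no other member above 0.46.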

How the data were processed

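RNA of 8 samples of adult heads, 4 groups of 2, was read on single-colour Affymetrix arrays with biotin label. The deposited table gives the authors' intensity per probe set on a linear scale, with each array's median at 100. GCOS is named in the submitters' processing notes, without version or summary method. From these values the arrays were quantile normalized, 17.5 (the 25th percentile of all values) was added, and log2 was taken. The 183 Affymetrix controls were left out, and the brightest 60% by mean, 11261 probe sets, were tested (lowest mean 38.1). A single model with a term per group was fitted in limma 3.58.1 under R 4.3.3, with the prior variance following the mean and 4 residual and 4.76 prior degrees of freedom. Two-sided p-values were adjusted by the Benjamini-Hochberg method over all tested probe sets, and a call needed 0.05. Log2 differences are of normalized values plus the pseudocount, which understates changes of dim probe sets, while signals and folds are of deposited values. The number of arrays limits the precision.

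In the array annotation 13647 probe sets have 1 symbol, 402 have several and 4903 have none. Of those with 1 symbol, 13544 were matched to RefSeq genes by gene ID. The probe set of highest mean stood for a gene. In each of the 7 pathway lists, called genes with the largest change in the mean of the 3 EYA groups were named, and others (Timp, mys, mew and Dg, and Mmp2, Plod and dlp for their single-group values) after their values were seen. Marker lists were glia, neurons, photoreceptors, ovary and testis beside those in the text. The 3 photoreceptor markers summed to 23089 to 32077 per array and the 5 neuron markers to 16627 to 21151, while the 4 ovary markers summed to 54.7 to 462, the 5 testis markers to 521 to 2295 and the 6 glia markers to 29645 to 34145. In the mean of the 3 EYA groups, the photoreceptor list gave 2 higher calls, glia 1 higher and 3 lower, and testis 1 lower. Neurons and ovary gave 0 by limma (1 and 0 at an unadjusted p under 0.05). Over all tested probe sets the shares were 15.3% higher and 15.7% lower. The members and lists were chosen with earlier results of these data known. Simulated data with known changes returned 90 of 100 probe sets changed by 2 on the log2 scale and 70 of 100 changed by 1 in wild-type EYA against control, with 11 false calls among 171. The simulation shuffled the spreads over probe sets, which removes their relation to the mean. It also changed far fewer probe sets than the 22.4% called in the real comparison, so its rates need not hold for these data. Replicate numbers did not pair the arrays: same-numbered deviations correlated by -0.14 to 0.09. Alternatives were other normalizations, pseudocounts, filters and variance models, a replicate block, the Act5C ratio as a covariate, only the groups compared, and each array left out. No sequence of these genes was used here.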

Additional observations from a re-analysis of the deposited data

Results flagged for a closer look

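LanA moved in opposite directions against the same control arrays, with both wild-type EYA arrays above control (log2 difference 1.61) and both arrays of each mutant below it (-0.55 in D493N heads and -0.44 in E728Q heads). The decrease passed the limma test in D493N heads (adjusted p = 0.0387), though in only 7 of 18 alternative settings. In E728Q heads it did not pass (adjusted p = 0.0952). The list was chosen from wild-type EYA against both mutants, so the LanA difference in that contrast was not tested here. SPARC was called between wild-type EYA and both mutants in the other direction (-1.34). dlp was called there too, at -0.43.

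Both arrays of a group lay above control in a transgene group and below it in another for 2 genes of the dystroglycan complex. For Dyb, a dystrobrevin, the differences from control were -0.039 in wild-type EYA heads, 0.085 in D493N heads and -0.041 in E728Q heads. For Scgbeta, a sarcoglycan, they were -0.11, -0.044 and 0.24. Neither gene was called in any comparison (D493N minus E728Q gave adjusted p = 0.582 and 0.291). An EYA group wholly above control and another wholly below was seen in 5.51% of all tested probe sets.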

How the results depend on the processing

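The increase of LanA in wild-type EYA heads and that of prc with each form of EYA kept their direction and stayed past the threshold under every alternative run, and no call of the 9 genes turned direction. The Act5C ratio differs mostly between groups, so as a covariate it takes up group differences. With it, probe sets called fell to 1019 in the mean of the 3 EYA groups, 223 in D493N heads, 957 in E728Q heads, 1 for D493N minus E728Q and 0 for wild-type EYA minus both mutants (1133 at an unadjusted p under 0.05), genes called among the 9 to 1 in the mean and 1 in D493N heads, and LanA was 2.63 above both mutants. It turned PH4alphaEFB to 0.033 and Scgdelta to -0.11 in the mean and Dys to -0.19 in D493N heads. D493N against control gave 4 of the 9 genes without the filter, without the variance trend and with only the groups compared, and E728Q gave 5 with only those groups. D493N minus E728Q gave 7 probe sets without the trend and 3 with only those groups. Wild-type EYA minus both mutants gave 86 without the filter, 56 without the trend, 67 with only those groups and 85 with the replicate block, and the block also took LanA (adjusted p = 0.0564) and Col4a1 (adjusted p = 0.0558) out of the D493N calls, gave wb in E728Q heads (adjusted p = 0.0452) and took dlp out of the wild-type calls. The cause of these changes was not tested, beyond the fewer arrays or other probe sets a setting uses.

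Leaving out 1 array gave 1960 to 4345 probe sets and 3 to 7 of the 9 genes in the mean, 1411 to 3427 and 2 to 5 in wild-type EYA heads, 1866 to 3736 and 4 to 8 in D493N heads, 1478 to 3518 and 2 to 6 in E728Q heads, 4 to 1095 and 0 to 5 for D493N minus E728Q, and 14 to 585 for wild-type EYA minus both mutants, where LanA was 1.98 to 2.23. A group left with 1 array is assumed to vary like the others. Comparing only the groups involved adds nothing for the mean, which uses all arrays, and dim probe sets have no value under the stricter filter. Signals near background, as for most wb and trol probe sets, limit what can be read from them.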
